A study of Mus musculus with 20 samples.

Results

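The enzymes that make arginine from citrulline, break it down to ornithine and urea, and draw on it for creatine and polyamines were followed as 10 genes, chosen by gene name from the 54532 genes of the deposited count table: Ass1, Asl, Arg1, Arg2, Otc, Cps1, Gatm, Agmat, Odc1 and Sat1. All 10 were in the table. A filter on low counts kept 8 of them for testing, and Otc and Cps1 were removed by it. RNA was sequenced from 10 kidney tumors and from 10 normal kidney regions of C57BL/6 mice that carried LSL-Cas9/+ and Pax8 Cre/+, alleles that together switch on Cas9 in cells with a history of Pax8 expression, a gene of the renal tubule lineage. The kidneys had been injected directly with adeno-associated viruses carrying guides against Vhl, Pbrm1, Keap1 and Tsc1. The normal samples came from the same injected mice, carried the same alleles and are not uninjected controls, and each tumor came from a different mouse. Age, time after injection and sex were not in the sample labels.

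The liver runs a complete urea cycle in its periportal cells, in which CPS1 and OTC make citrulline inside mitochondria and ASS1, ASL and ARG1 carry it through arginine to urea. The kidney is known for part of that route. Its proximal tubule takes up citrulline made by the small intestine, turns it into arginine with ASS1 and ASL, and passes some of the arginine to GATM, the mitochondrial enzyme that makes guanidinoacetate, the precursor of creatine. Ornithine released by the arginases can be turned into glutamate and proline or, through ODC1, into the polyamines.

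In the tumors, Arg2 and Ass1 were lower than in normal kidney and Gatm was higher. Arg2, the mitochondrial arginase, was 23.7-fold lower, and every tumor lay below every normal kidney. Ass1, which joins citrulline to aspartate, was 3.62-fold lower. Gatm was 3.87-fold higher, with 9 of 10 tumors above every normal kidney. Asl, Arg1, Agmat, Odc1 and Sat1 did not pass the test over all 20 libraries. Calls were made by the quasi-likelihood test of edgeR, where the p, adjusted by Benjamini and Hochberg's method across 15354 genes, was under 0.05. By that rule 1 member was higher and 2 were lower, against 23.6% of all tested genes higher and 23.8% lower. By the limits the study used, a log2 fold change beyond 1 with an unadjusted p under 0.001, 0 members were higher and 2 were lower, against 8.85% and 10.2% of all tested genes. The median log2 fold change of the 8 tested members was -0.2, beside -0.02 over all genes tested.

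Promoter sequence from RefSeq on GRCm38.p6 was matched for 6 of the 10 members and searched on both strands in the 250 bases before each RefSeq start. The letters ACGTG, the core of the hypoxia response element, are in 16.6% of 32851 promoters, and the E-box CACGTG, which contains those letters, is in 6.02%. Ass1 and Gatm, the matched members that passed the test, each held ACGTG. The stretches that hold it are shown because the engineered lesion targets Vhl, the gene whose protein marks hypoxia-inducible factors for degradation. Capitals mark the match. The Ass1 stretch (chr2:31470222-31470251, plus strand) lies before the RefSeq start but inside the gene as the count table draws it, and its match is the full E-box, beginning 36 bases before the RefSeq start.
Ass1: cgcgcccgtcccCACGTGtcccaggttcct
The Gatm stretch (chr2:122611304-122611527, minus strand) ends where the count table's gene begins, and its match begins 94 bases before the RefSeq start.
Gatm: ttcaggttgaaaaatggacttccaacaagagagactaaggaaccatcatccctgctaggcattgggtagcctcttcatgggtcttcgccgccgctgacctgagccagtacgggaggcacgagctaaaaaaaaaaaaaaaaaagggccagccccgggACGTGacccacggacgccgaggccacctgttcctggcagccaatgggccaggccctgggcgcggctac
Agmat, Odc1, Otc and Sat1 held neither motif in this window. None of the 6 held TGACNNNGC, the antioxidant response letters (10.2% of promoters), TGATGNAA, an amino acid response element (3.45%), or TATAAA (12.4%). A match describes letters only, and the genes with a match moved in opposite directions.

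The libraries held 18447394 to 24902973 counts in tumors and 14737516 to 26679704 in normal kidneys. Levels are given as CPM, read counts relative to a library size scaled by TMM, edgeR's correction for differences in RNA composition. The normal kidneys expressed markers of all nephron segments, although Avpr2, a listed collecting duct marker, was at 0.115 CPM or less. In the tumors the loop of Henle markers Umod, Slc12a1, Kcnj1 and Cldn16 were lower, 4 of 4, with a summed level of 0.0431 to 5.89 CPM against 3625 to 8979 CPM, and all tested distal convoluted tubule (3 of 3), collecting duct principal (4 of 4), intercalated (5 of 5) and podocyte (4 of 4) markers were lower too. Of 11 tested proximal tubule markers, 5 were lower and 0 higher, with sums of 1148 to 10132 CPM in the tumors and 3257 to 21202 CPM in the kidneys. These sums include Kap, an androgen-driven gene that alone ran from 1.38 to 10152 CPM in the kidneys. In such bulk samples, fewer cells of a type and less RNA per cell cannot be told apart. Some libraries stood apart. Normal kidneys 5, 7 and 8 had 1765 to 3302 CPM of Lcn2, a protein released by injured tubules, against 9.77 to 232 CPM in the other 7. Normal kidney 9 had the lowest TMM factor, 0.749. Tumor 7 had the lowest proximal tubule sum, 1148 CPM, and a fibroblast marker sum of 7856 CPM against 126 to 576 CPM in the other tumors. For most members, values with and without the libraries that set them apart are given below. The settings without kidneys 5, 7 and 8 together were chosen after the values had been seen.

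Ass1 (ENSMUSG00000076441, mm10 chr2:31470207-31520672) catalyzes the step that commits citrulline to arginine. In normal kidneys it ranged from 297 to 3502 CPM with a median of 1791, and in tumors from 129 to 902 CPM with a median of 472. The groups overlapped: 2 tumors lay below every normal kidney, and the other 8 lay within the range set by normal kidneys 7, 5 and 8 at its lower end. Those kidneys had 297, 530 and 645 CPM, whereas the other 7 had 1601 CPM or more, above every tumor. The mean was 510 ± 257 CPM in the tumors and 1847 ± 1144 CPM in the kidneys (n = 10 each, SD). The log2 fold change was -1.86 with a standard error (SE) of 0.412 (adjusted p = 0.000862, edgeR). Without normal kidneys 5, 7 and 8, it was -2.25.

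Asl (ENSMUSG00000025533, chr5:130011258-130029247) splits argininosuccinate, the product of ASS1, into arginine and fumarate. It ranged from 51.6 to 184 CPM in tumors, with a median of 134, and from 63 to 301 CPM in normal kidneys, with a median of 192. The groups overlapped widely. The log2 fold change of -0.49 (SE 0.266) did not pass the test over all libraries (adjusted p = 0.135, edgeR). The lowest normal values, 63, 75.9 and 119 CPM, were in kidneys 5, 7 and 8. Without those kidneys the log2 fold change was -0.79 (adjusted p = 0.00346, edgeR). That setting was chosen after the values had been seen. It drops the lowest normal values, which by itself moves the difference down, so its p is no separate support. Asl also passed without kidney 5 alone, its lowest normal value, at -0.59 (adjusted p = 0.0488, edgeR). Among the normal kidneys, Lcn2 was highest in 5, 7 and 8, where Asl was lowest, and its part in the Asl result was not tested.

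**Figure D1:**
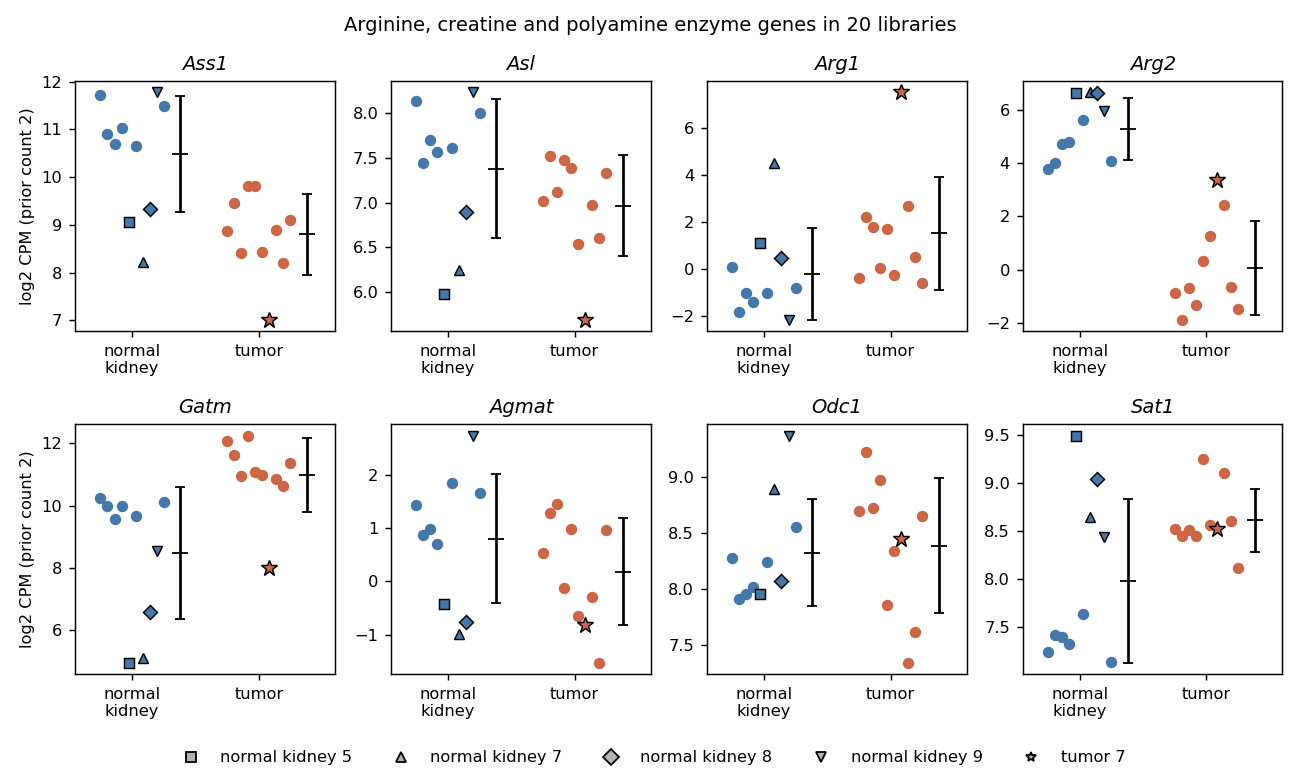
Each panel plots the log2 CPM of a tested member in 10 normal kidneys (blue) and 10 tumors (orange), with the mean and SD at the right of each group. The 4 normal kidneys and the tumor that stood apart carry their own symbols. All tumors are below all normal kidneys for Arg2, 9 of 10 tumors are above all normal kidneys for Gatm, and tumor 7 is the lowest tumor for Ass1, Asl and Gatm and the highest for Arg1 and Arg2.

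Ass1 and Asl, consecutive enzymes of the route, varied together. After the mean of each group was taken away, Asl was the gene most like Ass1 among 13315 genes (Spearman correlation 0.94 over 20 libraries), ahead of Kmo and Prodh (0.92 each). For Asl the closest genes were Sord (0.95), Paics (0.94) and Ass1. The libraries share depth, tissue makeup and, in part, mice, so these values are a description. The library with the least Ass1 and Asl among the tumors was tumor 7 (129 and 51.6 CPM), and the library with the most among the normal kidneys was kidney 9 (3502 and 301 CPM). Kidney 1 had more counts of both (59272 and 4978, against 55720 and 4783 in kidney 9) in a smaller library. The rank of kidney 9 thus rests on its low TMM factor, 0.749.

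**Figure D2:**
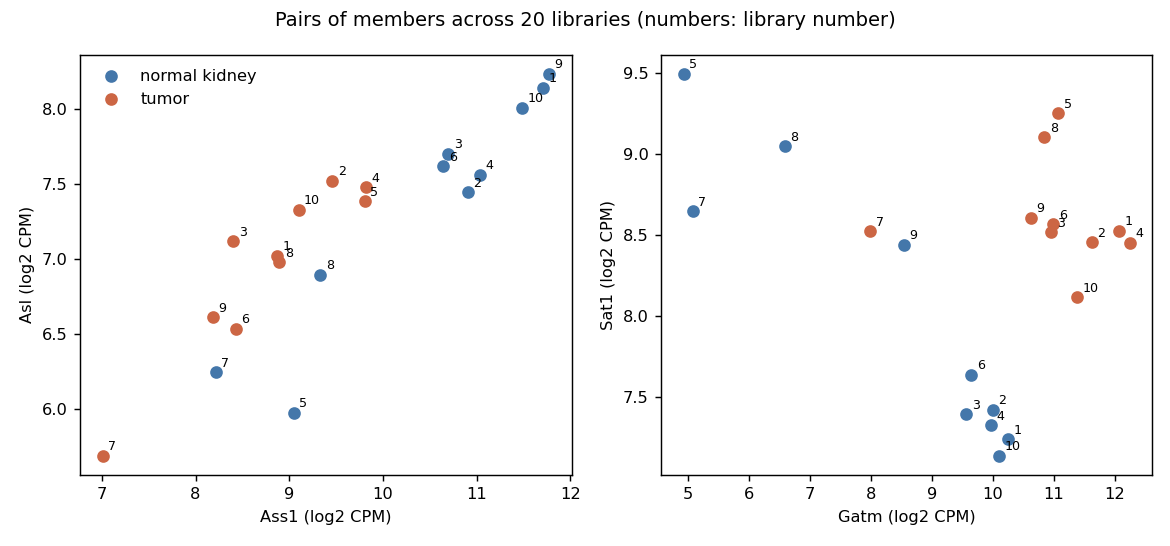
Each point is a library, with log2 CPM of Ass1 against Asl on the left and of Gatm against Sat1 on the right, and the library number beside it. Ass1 and Asl rise together in both groups, with tumor 7 at the bottom. Gatm and Sat1 run opposite ways, most widely among the normal kidneys, where 5, 7 and 8 have low Gatm and high Sat1.

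Arginine breakdown is shared by 2 arginases. Arg2 (ENSMUSG00000021125, chr12:79130777-79156301) encodes the mitochondrial form, known in the kidney from the straight part of the proximal tubule. In normal kidneys it ranged from 13.5 to 100 CPM with a median of 38, and in tumors from 0.171 to 10.3 CPM with a median of 0.529. All 10 tumors lay below all 10 normal kidneys, a separation found in that direction in 4.74% of all tested genes. The mean was 2.13 ± 3.27 CPM in the tumors and 50.8 ± 36.7 CPM in the kidneys (n = 10 each, SD), and the log2 fold change was -4.56 (SE 0.729, adjusted p = 2.68e-05, edgeR). The counts behind it ran from 3 to 241 in tumors and from 238 to 2745 in normal kidneys.

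Arg2 was highest in the same kidneys in which Ass1 was lowest, at 97.8 to 100 CPM in kidneys 5, 7 and 8 against 13.5 to 62.4 CPM in the other 7. Without those kidneys the log2 fold change was -3.79. Tumor 7 had the highest tumor level, 10.3 CPM, against 0.171 to 5.31 CPM in the other 9, and without it the log2 fold change was -5.4 (adjusted p = 1.02e-06, edgeR). The last 285 bases of Arg2 overlap Vti1b, a vesicle transport gene on the opposite strand, and whether the counting used strand was not given in the sources used here. Vti1b had 86.7 CPM in the tumors and 81.3 CPM in the kidneys (log2 fold change 0.09, adjusted p = 0.673, edgeR). The genes closest to Arg2 in their group-centered pattern were Tmem123 (0.89), Tnfrsf1b (0.85) and B4galt2 (0.83).

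Arg1 (ENSMUSG00000019987, chr10:24915221-24927484) encodes the cytosolic arginase of hepatocytes, which some macrophages and myeloid-derived suppressor cells also express. It was low in nearly all libraries. Tumors ranged from 0.562 to 181 CPM with a median of 2.25, and normal kidneys from 0.126 to 22.8 CPM with a median of 0.436. The highest values were in tumor 7, at 181 CPM against 6.31 CPM or less in the other tumors, and in normal kidney 7. The log2 fold change of 2.78 (SE 1.2) did not pass the test (adjusted p = 0.063, edgeR), and its sign depended on which libraries were kept. Without tumor 7 it was -0.31 (adjusted p = 0.785, edgeR). Without normal kidney 7 it was 4.86 and passed (adjusted p = 0.00229, edgeR), and without kidneys 5, 7 and 8 and tumor 7 together it was 2.55 and passed as well (adjusted p = 0.00121, edgeR). The latter setting was chosen after the values had been seen. Both drop the highest normal value, which by itself widens the difference.

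Tumor 7 also had the most RNA of myeloid markers. Of 7 macrophage markers tested, 5 were higher in tumors (Cd68, Cd163, Mrc1, Adgre1 and Csf1r), and their list summed to 1460 CPM in tumor 7, 252 to 703 CPM in the other tumors and 110 to 385 CPM in normal kidneys. The neutrophil and myeloid-derived suppressor list (6 genes, 4 tested, of which Csf3r was higher) summed to 415 CPM in tumor 7, 1.88 to 27.1 CPM in the other tumors and 1.98 to 37.3 CPM in normal kidneys. In neither list was a gene at 0 in all libraries of a group. The part of these cells in the Arg1 level was not tested. The genes closest to Arg1 in pattern were Dhx9 (0.88), Smg9 (0.86) and Rapgef1 (0.82).

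Cps1 and Otc, which make citrulline from ammonia in liver mitochondria, were at or near 0. Cps1 (ENSMUSG00000025991, chr1:67123026-67231259) had 0 counts in all 10 tumors and 40 counts in 2 normal kidneys, 35 of them in kidney 6. Otc (ENSMUSG00000031173, chrX:10252305-10321024) had 1 count in the tumors and 2 in the normal kidneys. A count of 0 allows up to 3 counts in a library, which is 0.112 to 0.204 CPM at these depths. With so few libraries holding a count, a permutation test could not tell the groups apart: for Cps1 the two-sided p of mean log2 CPM was 0.474, the smallest that counts in 2 of 20 libraries allow, and for Otc it was 1.0 (100000 resamples). With no filter on low counts, edgeR called Cps1 lower in tumors (adjusted p = 0.0301), on the counts of those 2 kidneys, and did not call Otc (adjusted p = 0.669). Nags, whose product makes the activator of CPS1, was also too low to test, at a median of 0.255 CPM in the tumors and 0.586 CPM in the kidneys. Kidney 6, with most of the Cps1 counts, also had the highest level of Alb, the liver's albumin gene, at 58.7 CPM against 1.74 to 10.8 CPM in the other kidneys. Of 7 hepatocyte markers tested, 4 were lower in tumors and 1, Apoa1, was higher. That list summed to 380 to 2208 CPM in the tumors and 1411 to 3810 CPM in the kidneys, and no gene of it was at 0 in all libraries of a group. Within the list, kidney 6 was also the highest kidney for Tat, at 0.575 CPM against 0.439 CPM or less. Its Apoa1, Apob, Ttr, Serpina1a, Cyp2e1 and Fgb lay within the range of the other kidneys. The part of hepatocyte RNA in the Cps1 counts was not tested.

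Gatm (ENSMUSG00000027199, chr2:122594467-122611303) encodes arginine:glycine amidinotransferase. It ranged from 254 to 4882 CPM in tumors, with a median of 2097, and from 30.3 to 1217 CPM in normal kidneys, with a median of 780. All tumors other than tumor 7 had 1582 CPM or more and lay above all 10 normal kidneys. Normal kidneys 5, 7 and 8 had 30.3, 33.7 and 95.9 CPM, below the 372 to 1217 CPM of the other 7. The mean was 2488 ± 1345 CPM in the tumors and 644 ± 468 CPM in the kidneys (n = 10 each, SD), and the log2 fold change was 1.95 (SE 0.589, adjusted p = 0.00953, edgeR). Without kidneys 5, 7 and 8 it was 1.47 (adjusted p = 0.00443, edgeR).

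Gatm rose and Ass1, on the route to its substrate, fell, although the genes varied in the same sense within the groups (group-centered Spearman correlation 0.77). Its closest genes were Acmsd, Tln2 and Snx29 (0.94 each). The 5 proximal tubule markers that passed the test, Kap, Slc22a8, Slc5a2, Miox and Slc27a2, were all lower in tumors, against the direction of Gatm, and the other 6 tested did not pass. Of those 6, Lrp2, the endocytic receptor megalin, had a median of 2773 CPM in the tumors and 2403 CPM in the kidneys (adjusted p = 0.275, edgeR), and the phosphate transporter Slc34a1 had medians of 959 and 2417 CPM (adjusted p = 0.0813, edgeR). Their part in the Gatm level was not tested.

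Beyond Gatm, 4 of the 6 listed creatine genes were tested. Slc6a8, the creatine transporter, rose, with a log2 fold change of 1.14, and the mitochondrial creatine kinase gene Ckmt1 rose by 1.46 on the log2 scale. Ckb, the brain-type cytosolic creatine kinase, fell by 0.93 on the log2 scale, a call that was lost when kidney 4 or 9 or tumor 1, 2, 3 or 4 was left out (adjusted p = 0.0512 to 0.0962, edgeR). Gamt, which methylates guanidinoacetate to creatine, had a median of 11.7 CPM in the tumors and 9.98 CPM in the kidneys (log2 fold change -0.09, SE 0.475, adjusted p = 0.89, edgeR). Kidneys 5, 7 and 8 had 0.645, 2.48 and 1.81 CPM of Gamt, against 8.12 to 34.5 CPM in the other kidneys. The list's median was 0.53.

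**Figure D3:**
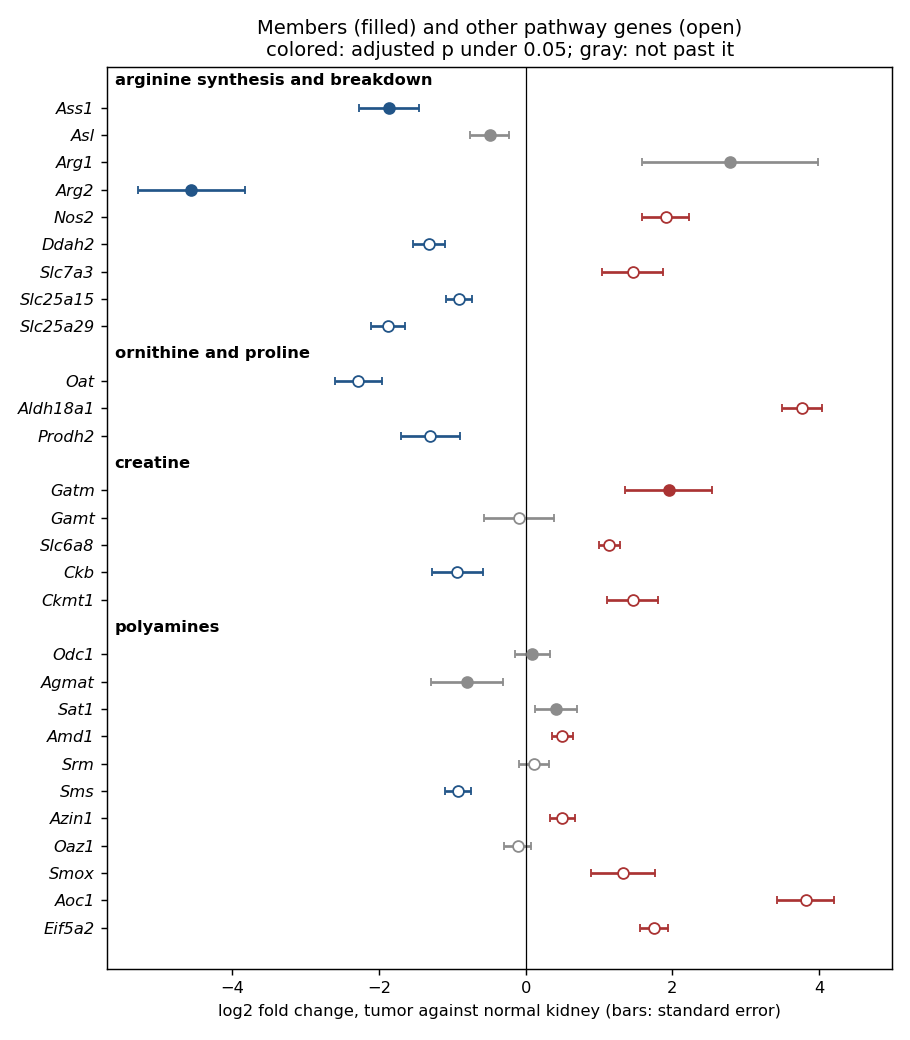
Log2 fold changes of tumor against normal kidney with standard errors, for the members (filled) and the other named pathway genes (open), in color where the adjusted p was under 0.05. Arg2 (-4.56) lies farthest to the left, and Aoc1 and Aldh18a1 (3.82 and 3.77) farthest to the right, while Odc1 and Gamt lie at 0.09 and -0.09.

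Odc1 (ENSMUSG00000011179, chr12:17544794-17551505) encodes ornithine decarboxylase, which makes putrescine and controls entry into polyamine synthesis. It ranged from 161 to 600 CPM in tumors, with a median of 376, and from 241 to 663 CPM in normal kidneys, with a median of 286. The tumors spanned almost the full range of the normal kidneys and reached below it. The log2 fold change was 0.09 (SE 0.237, adjusted p = 0.783, edgeR). Its sign turned under other scalings, to -0.03 with upper quartile factors and -0.1 with quantile normalization. The highest normal values, 663 and 476 CPM, were in kidneys 9 and 7. Without kidney 9 the log2 fold change was 0.24 (adjusted p = 0.36, edgeR). Odc1 is known to be androgen-driven in mouse kidney, and kidneys 9 and 7 had the most Kap, another androgen-driven kidney gene, at 10152 and 2122 CPM. Kap is from a list of 6 genes higher in male kidney, and the others did not all rank these kidneys alike. Kidney 9 also had the most Cyp4b1, Acsm3 and Cyp7b1, and kidney 7 the most Cyp4a12a. Cyp7b1 was lowest in kidney 7, at 1.53 CPM, and Slco1a1 was highest in kidney 1. The part of sex in the Odc1 level was not tested. Its closest genes were Klhdc4 (0.91), Rab29 (0.87) and Cops8 (0.82).

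Agmat (ENSMUSG00000040706, chr4:141746672-141759263), named for the hydrolysis of agmatine to putrescine and urea, was low in both groups. It ranged from 0.245 to 2.63 CPM in tumors and from 0.402 to 6.6 CPM in normal kidneys, on counts of 6 to 50 and 10 to 105, and the groups overlapped. The log2 fold change of -0.8 (SE 0.488) did not pass the test (adjusted p = 0.185, edgeR). Kidneys 5, 7 and 8 had 0.645, 0.402 and 0.488 CPM, below the 1.52 to 6.6 CPM of the other 7. Without them the log2 fold change was -1.22 (adjusted p = 0.0245, edgeR). That setting was chosen after the values had been seen. It drops the lowest normal values, which by itself moves the difference down, so its p is no separate support. With each library left out in turn, Agmat did not pass (adjusted p = 0.107 to 0.415, edgeR). Its closest genes included 2310061I04Rik (0.9) and Acat1 (0.89).

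Sat1 (ENSMUSG00000025283, chrX:155213132-155216449) encodes the acetyltransferase that marks spermidine and spermine for export or oxidation. It ranged from 277 to 610 CPM in tumors, with a median of 368, and from 140 to 723 CPM in normal kidneys, with a median of 185. Kidneys 5, 8 and 7 had 723, 529 and 400 CPM, and the other 7 had 140 to 347 CPM. Kidney 9, at 347 CPM, also lay above the lowest tumor. The log2 fold change was 0.42 (SE 0.286) and did not pass the test over all libraries (adjusted p = 0.234, edgeR). Without those 3 kidneys it was 1.07 and passed (adjusted p = 0.000174, edgeR), and without kidney 5 alone it was 0.67 (adjusted p = 0.0322, edgeR). Leaving out all 3 was chosen after the values had been seen. They hold the highest normal values, so dropping them by itself widens the difference, and its p is no separate support. Sat1 ran against Gatm within the groups (group-centered Spearman correlation -0.87), and its closest genes were Dazap2 and Litaf (0.93 each) and Cd14 (0.92).

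**Figure D4:**
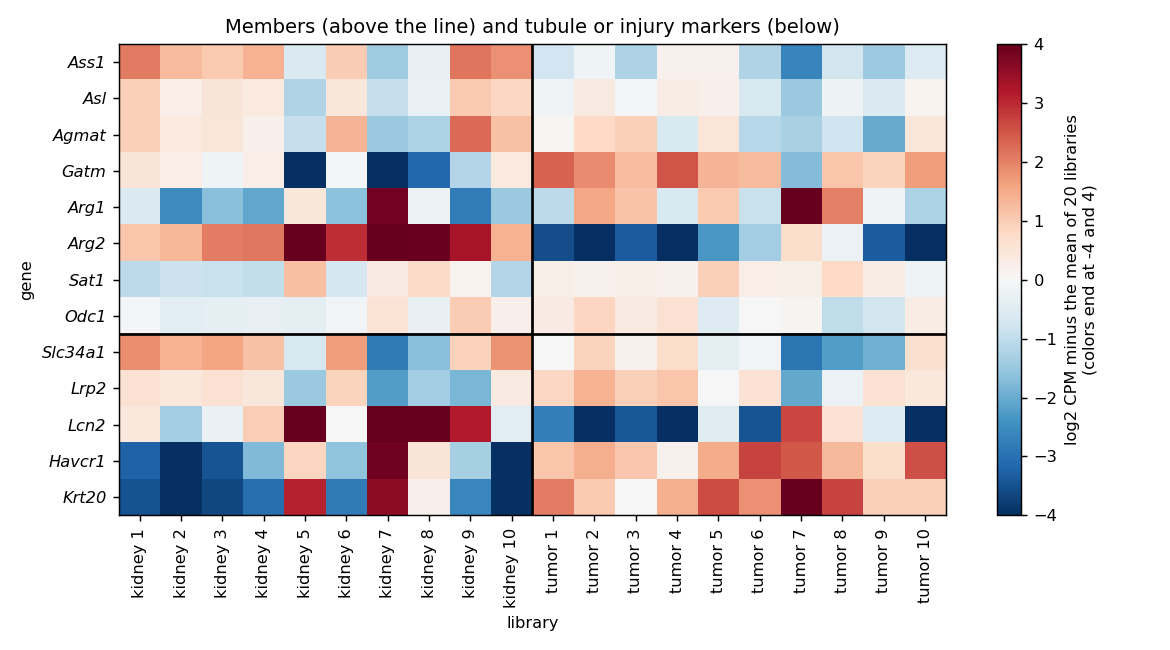
Colors give log2 CPM minus the mean of all 20 libraries, for the tested members above the horizontal line and for proximal tubule (Slc34a1, Lrp2) and injury (Lcn2, Havcr1, Krt20) markers below it, with normal kidneys at the left and tumors at the right. Kidneys 5, 7 and 8 have low Ass1, Asl, Agmat and Gatm and high Arg2 and Sat1 beside high Lcn2, and tumor 7 has the most Arg1.

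The 3 kidneys with the most Lcn2 held the 3 lowest normal values of Ass1, Asl, Gatm and Agmat and the 3 highest of Arg1, Arg2 and Sat1. Odc1 was the tested member for which they did not. Havcr1, the kidney injury molecule, had 163, 1347 and 128 CPM in kidneys 5, 7 and 8 against 3.18 to 35.7 CPM in the others. In the tumors Lcn2 was lower (median 3 CPM, adjusted p = 0.00491, edgeR), Havcr1 had a median of 235 CPM against 28 CPM (adjusted p = 0.49, edgeR), and of the 6 injury markers Vcam1 rose and Lcn2 fell. Leaving out the 3 kidneys moved the number of members called from 1 to 3 higher and from 2 to 4 lower. The share of all genes called was not computed without these kidneys, so this change cannot be read as particular to the members. That setting was chosen after the values had been seen, and the part of injury in these levels was not tested.

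Outside the members, 53 of 54 listed genes of the same pathways were in the table and 47 were tested, of which 11 (23.4%) were higher and 10 (21.3%) lower in tumors, with a median log2 fold change of -0.01. These shares are near the 23.6% and 23.8% of all tested genes. Of 12 tested genes of the urea cycle and arginine list, 2 (16.7%) were higher and 5 (41.7%) lower, with a median of -0.46. Nos2, the inducible nitric oxide synthase, which competes with the arginases for arginine, had 2.37 to 5.39 CPM in the tumors and 0.251 to 2.04 CPM in the kidneys and was higher (log2 fold change 1.91, adjusted p = 4.71e-05, edgeR). The cationic amino acid transporter gene Slc7a3 was higher by 1.46 on the log2 scale at about 1 CPM. The mitochondrial carriers of ornithine, Slc25a15, and of basic amino acids, Slc25a29, fell by 0.91 and 1.88 on the log2 scale. Ddah2, of a family that clears methylated arginines, fell by 1.31 on the log2 scale. Nos3 and the aspartate-glutamate carrier gene Slc25a12 were the other genes called lower.

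Of 11 tested genes of the ornithine, proline and glutamine list, 2 (18.2%) were higher and 3 (27.3%) lower, near the shares of all tested genes, with a median log2 fold change of 0.0. Oat, the mitochondrial ornithine aminotransferase that turns ornithine into pyrroline-5-carboxylate, ranged from 14.7 to 188 CPM in tumors, with a median of 50, and from 182 to 479 CPM in normal kidneys, with a median of 289. The highest tumor value was again in tumor 7, and all other tumors had 71.7 CPM or less. Oat was 4.84-fold lower (log2 fold change -2.28, SE 0.322, adjusted p = 5.97e-06, edgeR). Aldh18a1 makes the same intermediate from glutamate. It had 49 to 152 CPM in the tumors and 3.52 to 13.7 CPM in the kidneys, without overlap, and was 13.6-fold higher (log2 fold change 3.77, adjusted p = 5.71e-10, edgeR). A gap with every tumor above every normal kidney was found in 5.87% of all tested genes. Prodh2 fell by 1.3 on the log2 scale.

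Of 20 tested polyamine genes, 5 (25%) were higher, near the 23.6% of all tested genes, and 1 (5%) was lower, against 23.8%, with a median of 0.07. Aoc1, the diamine oxidase that degrades putrescine and histamine, was 14.1-fold higher, at 146 ± 103 CPM in the tumors and 10.4 ± 2.17 CPM in the kidneys (n = 10 each, SD, log2 fold change 3.82, adjusted p = 7.14e-08, edgeR). Eif5a2, an isoform of the protein that carries the spermidine-derived hypusine, was higher by 1.75 on the log2 scale, and Smox, spermine oxidase, by 1.33. Amd1, which makes the aminopropyl donor, and Azin1, an inhibitor of the antizymes, were each higher by 0.5 on the log2 scale. Sms, spermine synthase, fell by 0.92 on the log2 scale. Srm, spermidine synthase, and Oaz1, the antizyme that targets ornithine decarboxylase for degradation, had log2 fold changes of 0.11 and -0.11 and did not pass. An Oaz1 pseudogene and Amd2, a near copy of Amd1, are listed apart in the table, and reads shared with them could have been split. Azin1 did not pass with upper quartile factors, library totals or quantile normalization or without kidneys 5, 7 and 8 (adjusted p = 0.0658 to 0.209), and Amd1 did not with quantile normalization (adjusted p = 0.0895, limma). Without kidney 9 and tumor 7, Smox did not pass (adjusted p = 0.0583, edgeR).

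Levels were compared between genes as CPM per kilobase of exon. In normal kidneys the order of the means was Ass1 (765 ± 474), Gatm (214 ± 156), Sat1 (108 ± 71.6), Odc1 (99.6 ± 39.8), Asl (38.6 ± 16.9), Arg2 (35.6 ± 25.7), Agmat (1.6 ± 1.33) and Arg1 (1.3 ± 3.15), all as SD with n = 10. Sat1 and Odc1, Asl and Arg2, and Agmat and Arg1 were neighbors closer than their spread. In tumors Gatm came first, at 829 ± 448, followed by Ass1 at 211 ± 107, Sat1 at 144 ± 36.1, Odc1 at 106 ± 40.5 and Asl at 27.4 ± 8.75. Arg1 had a mean of 9.09 ± 25.4 that rested on tumor 7 (median 1.01), Arg2 had 1.49 ± 2.29 and Agmat had 0.913 ± 0.602. Gatm and Ass1 exchanged places between the groups, and Arg2 moved from near the level of Asl to near that of Agmat.

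**Figure D5:**
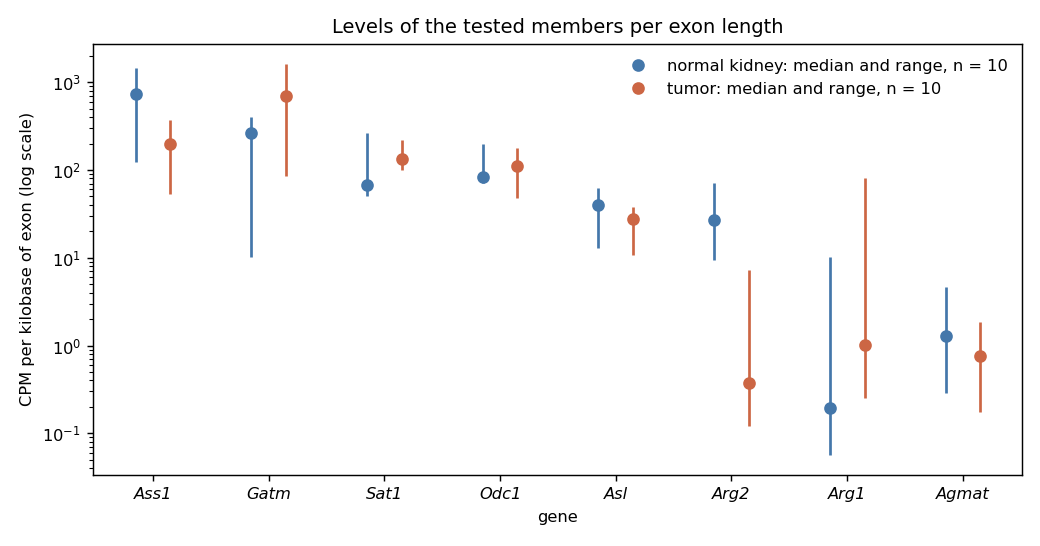
Points are medians and lines run from the lowest to the highest of 10 libraries, in CPM per kilobase of exon on a log axis, for normal kidneys (blue) and tumors (orange). Ass1 is the highest in normal kidneys, with a median of 742, Gatm the highest in tumors, with a median of 699, and Arg2 falls from a median of 26.6 to 0.37.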

How the data were processed

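Flash-frozen tumors and normal kidney regions were pulverized and total RNA was taken up in Trizol. Poly-A libraries were made and sequenced by Novogene. The authors deposited whole-number counts per gene for 20 libraries, not normalized, with coordinates on mm10, per the labels. Aligner, counter and strand setting are not given in the sources used here. Member coordinates equaled GENCODE M21 for 10 of 10 genes.

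Samples were grouped by their labels. Genes with low counts were filtered (filterByExpr, minimum count 10), scaled by TMM and tested in edgeR 4.0.16 (R 4.3.3) by the quasi-likelihood test over all 20 libraries with no covariate, with Benjamini-Hochberg adjustment over 15354 genes. Log2 CPM used a prior count of 2. Separate cultures or extractions are not described, so p-values measure the spread between these samples. Tumors and kidneys came from the same mice, and the main test did not pair them. A fit with the shared number as a block is given at the end. Of 90 library pairs within a group, none was near identical (chi-square over its degrees of freedom of 12.8 or more). The scripts were tested on simulated data. Alternatives used limma 3.58.1 and DESeq2 1.42.0. Standard errors cover the spread between libraries, and the limit given for a count of 0 covers counting error only.

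The members and the lists of pathway and marker genes were chosen with earlier results of these data known. Named genes were the members, 12 pathway genes named whatever their change, in each pathway list up to 3 called genes per direction with the widest change and at least 1 CPM in a group, and the 3 protein-coding genes most alike to each tested member. The counts of endothelial (1 higher and 1 lower of 5), fibroblast (0 of 5), T cell (1 lower of 3), proliferation (1 higher of 5), male-biased (1 higher and 4 lower of 6), female-biased (2 lower of 2) and sex chromosome (0 of 5) markers complete the lists. Some genes that this rule picked are not reported here.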

Additional observations from a re-analysis of the deposited data

Results flagged for a closer look

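In 56 groups of 10 libraries (28 named genes tested, each in tumors and in normal kidneys), 9 had a lowest or highest library set apart from the other 9 by Dixon's 95% criterion on log2 CPM. Chance gives about 1 in 20 groups. Tumor 7 was set apart in 5 of them, at 7.5 for Arg1 (others -0.59 to 2.68), 7.99 for Gatm (others 10.63 to 12.25), 5.16 for Slc25a15, 8.61 for Slc6a8 and 2.02 for Prodh2 (others 4.33 to 5.87). Normal kidney 7 was set apart at 4.52 for Arg1 and 2.91 for Prodh2. Normal kidney 9 was set apart at 9.86 for Oaz1 (others 8.13 to 8.36). Normal kidney 8 was set apart at 5.74 for Amd1.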

How the results depend on the processing

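Ass1, Arg2 and Gatm kept their direction and their side of the threshold in 11 other settings and with each of 20 libraries left out in turn, with log2 fold changes of -2.25 to -1.61, -5.46 to -3.79 and 1.47 to 2.38. The cause of the following changes was not tested. The share of all genes called was computed only for the edgeR test over all 20 libraries. Counts of members and pathway genes in the other settings therefore cannot be read as particular to these genes. With sample quality weights in limma-voom, Asl was -0.54, Arg1 1.71, Odc1 0.45 and Sat1 1.06 and passed, giving 4 members and 17 pathway genes higher. DESeq2 gave Arg1 1.58 and 2 members higher. Library totals alone gave Asl -0.61. Odc1 was -0.03 with upper quartile factors and -0.1 with quantile normalization. Upper quartile factors and library totals moved the median of all genes from -0.02 to -0.14. Without kidney 9 and tumor 7, Arg1 was -0.47. Chosen after seeing the data, the fit without kidneys 5, 7 and 8 gave Asl -0.79, Arg1 5.69, Agmat -1.22, Sat1 1.07, 3 members higher and 4 lower, and with tumor 7 left out too it gave -0.7, 2.55, -1.12, 1.08, 3 and 4, with 16 pathway genes lower.

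Leaving out each library in turn gave log2 fold changes of -1.99 to -1.72 for Ass1, -0.59 to -0.4 for Asl, -0.31 to 4.86 for Arg1, -5.4 to -4.4 for Arg2, 1.79 to 2.09 for Gatm, -0.97 to -0.46 for Agmat, -0.02 to 0.24 for Odc1 and 0.33 to 0.67 for Sat1. Members higher numbered 1 to 2 and lower 2 to 3, and pathway genes higher 11 to 13 and lower 8 to 12. Odc1 was -0.02 without tumor 2.

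Tumors and kidneys share the numbers 1 to 10, but the labels do not say that a number marks a mouse. Deviations of same-numbered libraries correlated at -0.14 to 0.38, over 0.1 in 9 of 10 pairs, and 8 of 10 tumors correlated best with their own number. Xist against Ddx3y was alike in 10 of 10 same-numbered pairs. With the number as a replicate block, Arg1 was 1.91 and Sat1 0.64 and passed, giving 3 members higher. No other member's call changed, and the pathway gene Ckb had an adjusted p of 0.0649.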
